A study of Coturnix japonica with 144 samples.

Results

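Japanese quail (Coturnix japonica) brains hold 3 transcripts known only by their identifiers, ENSCJPG00005007063, ENSCJPG00005007066 and ENSCJPG00005002600, which the study listed as long non-coding RNAs without a symbol among genes that were lower after a parental sensitization treatment or that fell with the duration of brooding. They were taken by identifier, 3 of 21561 genes in the count table, and set beside NR4A3 (ENSCJPG00005007065) and FOSB (ENSCJPG00005002598), the named genes with neighbouring identifier numbers. The values that chose them were the treatment and brooding contrasts of the hypothalamus for ENSCJPG00005007063 and ENSCJPG00005002600 and the treatment contrast in the bed nucleus of stria terminalis (BnST) for ENSCJPG00005007066, so those contrasts are described here with no p-value. Listed here does not mean called at a given threshold. The paper's text names the genes down-regulated in the BnST, and ENSCJPG00005007066 is not among them. For the hypothalamus a figure legend of the paper mentions a down-regulated gene without annotation that is not shown. That legend gives no identifier for it. In the fits made here, neither ENSCJPG00005007066 in the BnST nor ENSCJPG00005002600 in the hypothalamus passed adjustment for treatment. ENSCJPG00005007063 passed in the hypothalamus with DESeq2 alone.

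Immediate early genes are switched on within minutes of strong neuronal input, before new protein is made, and their RNA is widely read as a trace of recent neuronal activity. Many of them encode transcription factors. FOSB pairs with JUN proteins to form the AP-1 factor, and NR4A3 is an orphan nuclear receptor. Long non-coding RNAs are transcripts that are not translated, and many lie close to a protein-coding gene whose expression they share. Neither the position nor the sequence of the 3 unnamed genes was used here, since the reference at hand carries no match for their identifiers, and what they do is unknown.

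RNA was sequenced from the hypothalamus, the BnST and the nucleus taeniae (Tn), punched from frozen brains of the same 48 birds, one library for each region. These were adults kept on short days, when quail do not breed. The 24 sensitized birds (I, 13 males and 11 females) spent the night before in a box with chicks, and the 24 control birds (C, 8 males and 16 females) spent it in the box alone. All 48 met unfamiliar chicks in the morning and were killed at the end of that meeting, so control tissue is not tissue from undisturbed birds. Response labels come without a key: 17 I birds are labelled R and 6 NR, 5 C birds are labelled S and 17 NS, and 3 birds carry NA.

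Libraries held 9664414 to 19640873 counts (median 12636688). Bird 49, a male labelled I and R, had a BnST library far out on the leading principal component (90.4, with the next library at 39.5). Bird 17 is labelled male, but its mean log2 level of 50 male-biased genes (5.38 to 5.65 in the 3 regions) was below every other male (6.17 or higher). Bulk tissue cannot separate fewer cells of a type from less RNA per cell. The kit does not mark strand as far as the sources tell, so reads of a transcript and of a gene that overlaps it on the other strand cannot be told apart. Markers of neurons, glia and regions could not be looked up, because no table used here gives symbols to their identifiers.

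All 3 unnamed genes were measurable in every library. Levels are given as CPM, counts scaled to a common library size after correction for library composition with TMM factors. ENSCJPG00005007063 averaged 20.3 ± 4.36 CPM in the hypothalamus, 42.98 ± 15.4 CPM in the BnST and 41.4 ± 7.81 CPM in the Tn (SD, n = 48 birds each). ENSCJPG00005007066 was at 2.47 ± 1.09 CPM in the hypothalamus, where a library held as few as 9 counts of it, at 4.37 ± 1.95 CPM in the BnST and at 6.15 ± 1.71 CPM in the Tn. ENSCJPG00005002600 was at 5.68 ± 1.87 CPM in the hypothalamus, 12.1 ± 5.45 CPM in the BnST and 8.69 ± 2.64 CPM in the Tn. For each gene the hypothalamus was thus the region with the lowest mean, while the order of BnST and Tn differed between the genes.

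**Figure D1:**
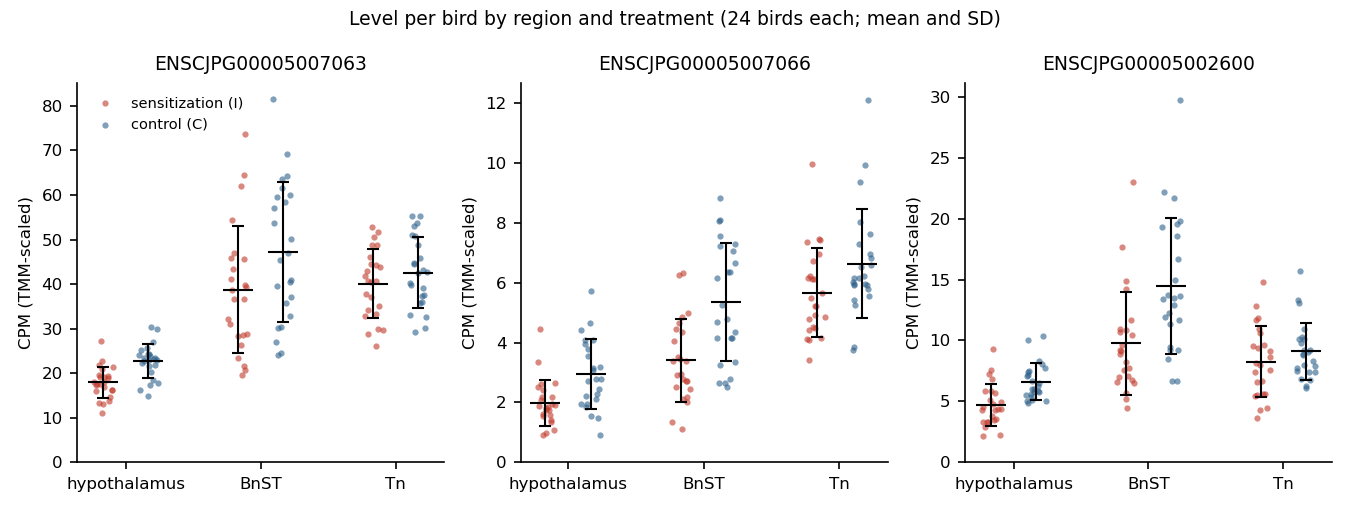
CPM of the 3 unnamed genes in each bird, by region and treatment. Points are birds (red sensitized, blue control, 24 each), bars the mean and SD. The hypothalamus lies lowest for each gene, and in every region the mean of the sensitized birds lies below that of the controls, with wide overlap.

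Region was not used to choose the genes, and it was compared within birds, with the bird as a block in edgeR's quasi-likelihood test. ENSCJPG00005007063 was lower in the hypothalamus than in the BnST in 48 of 48 birds (log2 fold change −1.06, SE 0.0757, adjusted p = 3.62e-23) and lower than in the Tn in 48 of 48 birds (−1.06, SE 0.0752, adjusted p = 4.49e-24). Between BnST and Tn it had no common direction: it was higher in the BnST in 24 birds and lower in 24, with a log2 fold change of 0.00 (95% interval −0.15 to 0.14, adjusted p = 0.986). A call is common in these comparisons: 65.2% of 16085 genes passed an adjusted p of 0.05 between hypothalamus and BnST, 72.4% between hypothalamus and Tn and 67.0% between BnST and Tn, so that 3, 3 and 2 of the 3 unnamed genes being called is close to that background.

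ENSCJPG00005007066 was lower in the hypothalamus than in the Tn in 48 of 48 birds (−1.38, SE 0.093, adjusted p = 9.53e-26). Against the BnST it was lower in the hypothalamus in 42 of 48 birds (−0.81, SE 0.0949, adjusted p = 1.24e-12). It was also lower in the BnST than in the Tn, in 36 of 48 birds (−0.57, SE 0.0894, adjusted p = 2.69e-08). NR4A3 took the same order, with log2 fold changes of −1.18 between hypothalamus and Tn, −0.88 between hypothalamus and BnST and −0.30 between BnST and Tn.

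ENSCJPG00005002600 had its highest level in the BnST. It was lower in the hypothalamus than in the BnST in 46 of 48 birds (−1.07, SE 0.0879, adjusted p = 9.03e-20) and lower in the hypothalamus than in the Tn in 43 of 48 (−0.65, SE 0.0883, adjusted p = 2.25e-10). Between BnST and Tn it was higher in the BnST in 36 of 48 birds (0.42, SE 0.0856, adjusted p = 1.003e-05). FOSB again had the order of its numerical neighbour: its log2 fold changes were −1.18 between hypothalamus and BnST, −0.78 between hypothalamus and Tn and 0.40 between BnST and Tn. ENSCJPG00005007063 is the exception, since NR4A3 was lower in the BnST than in the Tn and this gene was not.

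The next question was how the 3 genes stood after sensitization. In the hypothalamus ENSCJPG00005007063 ranged from 11.1 to 27.3 CPM in I birds (median 17.8), against 14.8 to 30.4 CPM in C birds (median 23.1). In I birds 23 of 24 values lay below the C median, yet only 5 lay below the lowest C value. The means were 17.9 ± 3.53 CPM in I birds and 22.7 ± 3.82 CPM in C birds (SD, n = 24 each), a log2 fold change of −0.33 (SE 0.0754), which is one of the contrasts that chose the gene.

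ENSCJPG00005002600 lay between 2.17 and 9.27 CPM in the hypothalamus of I birds (median 4.37), against 4.83 to 10.4 CPM in C birds (median 6.16). Here the lower edge of the groups separated most: 15 of 24 I birds were below the lowest C bird, while only 2 C birds were above the highest I bird. How many other genes separate as far was not counted. The log2 fold change, again from a contrast that chose the gene, was −0.49 (SE 0.121). Among all 14491 genes tested, those of ENSCJPG00005002600 and ENSCJPG00005007063 ranked 31 and 105 from the lowest. In that comparison 3 of 14491 genes (0.0207%) passed an adjusted p of 0.05 in edgeR, with 0 of the 3 unnamed genes among them, and DESeq2 called 8 genes, with ENSCJPG00005007063 among them. Since the contrast chose ENSCJPG00005007063 and ENSCJPG00005002600, nothing is read from these calls on them.

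ENSCJPG00005007066 was not chosen from the hypothalamus. Its values there were 0.911 to 4.44 CPM in I birds (median 1.86), against 0.911 to 5.71 CPM in C birds (median 2.79). The groups overlapped over nearly their whole range, although 22 of 24 I birds were below the C median. The log2 fold change of −0.57 (SE 0.156, p = 6.84e-04) did not pass adjustment over all genes (edgeR, adjusted p = 0.583, 0.290 to 0.879 under the alternatives).

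In the BnST the contrast that chose ENSCJPG00005007066 gave 1.12 to 6.31 CPM in I birds (median 3.16), against 2.52 to 8.83 CPM in C birds (median 5.01). Of the C birds, 10 of 24 were above the highest I bird, the widest separation at the upper edge among the 3 genes and 3 regions. That width follows in large part from the choice of the gene by this contrast. How many other genes separate as widely was not counted. Means were 3.402 ± 1.37 CPM in I birds and 5.35 ± 1.98 CPM in C birds (SD, n = 24 each), and the log2 fold change was −0.65 (SE 0.164).

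The other 2 genes were tested in the BnST, where 8 of 14384 genes (0.0556%) passed and neither of these 2 was among them. ENSCJPG00005002600 was at 4.47 to 23 CPM in I birds (median 8.997), against 6.64 to 29.7 CPM in C birds (median 13.4). Its log2 fold change of −0.56 (SE 0.158, p = 8.78e-04) had an adjusted p of 0.669 (edgeR, 0.323 to 0.791 under the alternatives). ENSCJPG00005007063 was at 19.598 to 73.7 CPM in I birds (median 37.6), against 24.1 to 81.6 CPM in C birds (median 46.2), with a log2 fold change of −0.28 (SE 0.142, adjusted p = 0.781, 0.520 to 0.995 under the alternatives). Both genes had 19 or 20 of 24 I birds below the C median, and neither passed the test. These libraries come from the birds whose hypothalamus chose the 2 genes, so the BnST values are not from other animals.

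The Tn showed the smallest differences, and no gene passed there (0 of 14242, 0%, with edgeR, DESeq2 and limma-voom alike, and 678 genes at an unadjusted p under 0.05 with edgeR). ENSCJPG00005007066 was at 5.66 ± 1.48 CPM in I birds and 6.63 ± 1.82 CPM in C birds (SD, n = 24 each), a log2 fold change of −0.23 (95% interval −0.43 to −0.02, adjusted p = 0.939). ENSCJPG00005002600 was at 8.26 ± 2.91 CPM in I birds and 9.13 ± 2.33 CPM in C birds, with a log2 fold change of −0.14 (95% interval −0.39 to 0.10). For ENSCJPG00005007063 the values were 40.1 ± 7.69 CPM in I birds and 42.6 ± 7.91 CPM in C birds, a log2 fold change of −0.09 (95% interval −0.24 to 0.07). Each of the 3 genes was chosen for a lower value in the hypothalamus or BnST and none from the Tn, so these sizes are not on a par. Whether the treatment difference is smaller in the Tn than in the other regions was not tested.

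**Figure D2:**
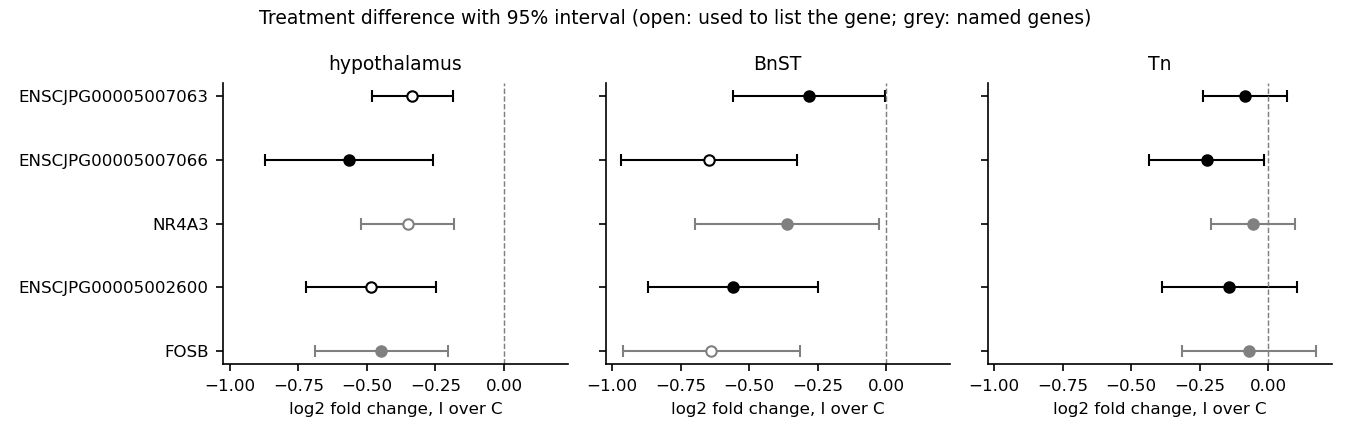
Log2 fold change of sensitized (I) over control (C) birds, for the 3 unnamed genes (black) and for NR4A3 and FOSB (grey), 24 birds a group. Bars are approximate 95% intervals computed from the F statistic of edgeR. Open circles mark contrasts in which the study listed the gene. Each value in the hypothalamus and BnST is below 0, at −0.28 to −0.65, and the Tn values, from which no unnamed gene was chosen, are nearest to 0.

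Treatment differences had 1 direction in birds numbered 1 to 20 and in birds numbered 21 to 50, a split of the birds for which the labels give no meaning. In the hypothalamus I minus C was −0.82 among the lower numbers and −0.36 among the higher ones for ENSCJPG00005007066, −0.69 and −0.39 for ENSCJPG00005002600, and −0.45 and −0.26 for ENSCJPG00005007063, on the log2 CPM scale. BnST differences were −0.83 and −0.60 for ENSCJPG00005007066, −0.53 and −0.64 for ENSCJPG00005002600, and −0.43 and −0.26 for ENSCJPG00005007063. The hypothalamus values of ENSCJPG00005007063 and ENSCJPG00005002600 and the BnST values of ENSCJPG00005007066 divide a contrast that chose the gene. Their shared direction follows in large part from that choice and is a description only.

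Within each sex the differences also pointed down, which for the contrasts that chose a gene again follows in large part from that choice. Among males I minus C in the hypothalamus was −0.77 ± 0.227 for ENSCJPG00005007066 (SE, 13 I and 8 C birds), and among females −0.37 ± 0.210 (11 I and 16 C birds). ENSCJPG00005002600 in the BnST ran the other way, with −0.30 ± 0.229 in males and −0.76 ± 0.220 in females. The interaction of sex with treatment did not pass for any of the 3 genes in any region (edgeR, adjusted p of 0.998 or higher), and it passed for 0 of 15040 genes in the hypothalamus, 0 of 14964 in the BnST and 0 of 14887 in the Tn (0% each). Unadjusted p-values under 0.05 numbered 502, 605 and 456, and DESeq2 called 0 genes in the hypothalamus, 0 in BnST and 1 in Tn.

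Sex by itself was tested with treatment in the model. None of the 3 genes passed in any region, where 5.18% of 14830 genes did in the hypothalamus, 3.71% of 14748 in the BnST and 4.07% of 14634 in the Tn. ENSCJPG00005007066 in the Tn came nearest, at 6.58 ± 1.64 CPM in 21 males and 5.81 ± 1.71 CPM in 27 females (SD), with a log2 fold change of 0.25 (SE 0.105, p = 0.0195, adjusted p = 0.296 in edgeR, 0.207 to 0.586 under the alternatives, which include leaving out bird 17). FOSB had 0.33 in that comparison (adjusted p = 0.171). Within birds 1 to 20 and birds 21 to 50 the difference of ENSCJPG00005007066 in the Tn was 0.30 and 0.18. Elsewhere M minus F changed direction between birds 1 to 20 and birds 21 to 50 for ENSCJPG00005007066 in the hypothalamus (0.33 and −0.06) and for all 3 genes in the BnST (0.47 and −0.24 for ENSCJPG00005007066, 0.43 and −0.03 for ENSCJPG00005007063, 0.10 and −0.24 for ENSCJPG00005002600).

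A further comparison used the response labels, which divide the sensitized birds into R and NR and the controls into S and NS. In the hypothalamus ENSCJPG00005007063 was at 16.5 ± 2.65 CPM in the 17 R birds and 21.5 ± 3.14 CPM in the 6 NR birds (SD). The controls were at 21.01 ± 5.58 CPM in the 5 S birds and 23.1 ± 3.46 CPM in the 17 NS birds. R birds spanned 11.1 to 21.9 CPM (median 16.97) and NR birds 18.9 to 27.3 CPM (median 20.3), so the ranges overlapped between 18.9 and 21.9 CPM. On the log2 CPM scale R minus NR was −0.39 ± 0.0992, S minus NS −0.15 ± 0.169 and NR minus NS −0.10 ± 0.0978 (SE).

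ENSCJPG00005002600 followed with 4.31 ± 1.58 CPM in R, 5.88 ± 1.94 CPM in NR, 6.11 ± 0.923 CPM in S and 6.76 ± 1.68 CPM in NS birds (SD). R minus NR was −0.46 ± 0.213 on the log2 CPM scale, and S minus NS was −0.12 ± 0.123 (SE). Both genes were listed by the study for brooding duration in the hypothalamus, and these values are therefore a description. With treatment in the model, R or S over NR or NS (22 and 23 birds, NA birds left out) was −0.27 for ENSCJPG00005007063 (SE 0.0824) and −0.31 for ENSCJPG00005002600 (SE 0.140). Within birds 1 to 20 these differences were −0.11 and −0.09, and within birds 21 to 50 they were −0.43 and −0.44.

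ENSCJPG00005007066 in the hypothalamus was at 1.79 ± 0.496 CPM in R, 2.71 ± 1.02 CPM in NR, 3.19 ± 0.594 CPM in S and 2.84 ± 1.33 CPM in NS birds (SD). R birds ranged from 0.911 to 2.64 CPM and NR birds from 1.8002 to 4.44 CPM. The mean of the S birds was above that of the NS birds, unlike that of the other 2 unnamed genes. On the log2 CPM scale S minus NS was 0.28 ± 0.196 (SE). NR4A3 had the same direction (0.23 ± 0.117), and FOSB did not (−0.07 ± 0.156). The difference of ENSCJPG00005007066 between R or S and NR or NS birds, given treatment, was −0.23 (SE 0.178, edgeR adjusted p = 0.658, 0.422 to 0.803 under the alternatives). In that comparison 2 of 14965 genes (0.0134%) passed.

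**Figure D3:**
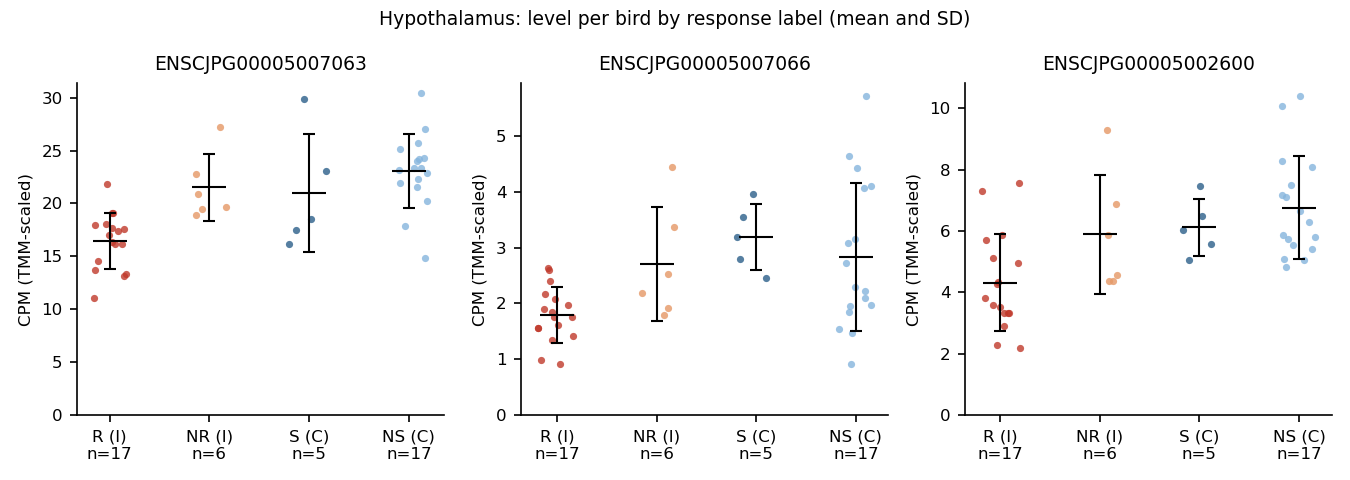
CPM in the hypothalamus by response label: R and NR among sensitized birds (I), S and NS among controls (C). Points are birds, bars the mean and SD. R birds have the lowest mean of the 4 classes for each gene, at 16.5, 1.79 and 4.31 CPM from the left panel to the right. The genes of the left and right panels were chosen by treatment and brooding in this region. For them this order follows in large part from that choice.

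Outside the hypothalamus none of the 3 genes passed for response. In the BnST the log2 fold changes of R or S over NR or NS birds were 0.03, 0.04 and 0.10 for ENSCJPG00005007063, ENSCJPG00005007066 and ENSCJPG00005002600, with 95% intervals reaching from −0.35 to 0.47 in all, and in the Tn they were −0.06, −0.15 and −0.02, with intervals from −0.41 to 0.28. No gene passed in either region (edgeR, 0 of 14876 in the BnST and 0 of 14849 in the Tn, 0% each, with 305 and 419 genes at an unadjusted p under 0.05, and 0 by DESeq2 and limma-voom). In the BnST ENSCJPG00005007066 was at 3.36 CPM in R and 3.64 CPM in NR birds, against 5.80 CPM in S and 5.10 CPM in NS birds. The treatment contrast of this region chose that gene, so this order follows in large part from that choice. ENSCJPG00005007063 and ENSCJPG00005002600 were chosen from the hypothalamus of the same birds, not from the BnST. The first was at 38.4 CPM in R and 41.5 CPM in NR, against 50.9 CPM in S and 45.1 CPM in NS birds. The second was at 10.01 CPM in R and 9.56 CPM in NR, against 14.97 CPM in S and 13.74 CPM in NS birds.

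The level of each unnamed gene was then compared across the 48 birds with that of NR4A3 and FOSB, on the log2 CPM scale. Of 18 pairs (3 genes, 2 partners, 3 regions), 5 had both genes listed by the study in the region and are described only. The other 13 were tested by permutation with Benjamini-Hochberg adjustment over the 13, and 13 of 13 passed. How many other genes of a region would pass the same test was not counted. By r with ENSCJPG00005007066 in the hypothalamus, FOSB ranked 352 among 14490 other genes. By r with ENSCJPG00005002600 in the BnST, NR4A3 ranked 164 among 14383. In the Tn NR4A3 ranked 1 among 14241 for ENSCJPG00005007063 and for ENSCJPG00005007066. By r with ENSCJPG00005007063 over all 48 birds, NR4A3 ranked 87 in the BnST and 8 in the hypothalamus, behind FOSB at 10 and 6. A pass is therefore not particular to the 2 partners. The permutation moved birds between treatments, so a treatment difference shared by a pair, also one that chose a gene, adds to its r. A shared difference with brooding adds to it too, and removing treatment means does not fully take that out. The genes of a pair share a library, and their correlation says nothing of which gene, if either, acts on the other.

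ENSCJPG00005007066 ran with NR4A3 in each region. Pearson's r was 0.86 in the BnST (Spearman's rho 0.85), 0.75 in the hypothalamus (rho 0.76) and 0.68 in the Tn (rho 0.72), each with a permutation p of 1e-05, the smallest that 100000 resamples can give, and an adjusted p of 1.18e-05. With treatment means removed r was 0.85, 0.69 and 0.68, so the birds of a group also varied together. Leaving out the 2 birds farthest from the NR4A3 median gave 0.83, 0.73 and 0.68. Within birds 1 to 20 r was 0.81, 0.88 and 0.66, and within birds 21 to 50 it was 0.89, 0.64 and 0.72.

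ENSCJPG00005007063 had an r with NR4A3 of 0.76 in the BnST (rho 0.88) and 0.77 in the Tn (rho 0.79), both with a permutation p of 1e-05 (adjusted p = 1.18e-05), and 0.72 in the hypothalamus (rho 0.67, described only). Bird 49 decided the size of the BnST value. In its BnST library NR4A3 was at 12.6 CPM, the lowest of the 48, while ENSCJPG00005007063 was at 45.8 CPM, near the middle of its range, and without that bird r was 0.93. Without the 2 birds farthest from the NR4A3 median r was 0.68 in the hypothalamus, 0.93 in BnST and 0.75 in Tn. Birds 1 to 20 gave 0.85, 0.97 and 0.85 in these regions, and birds 21 to 50 gave 0.71, 0.68 and 0.69.

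ENSCJPG00005002600 ran with FOSB at an r of 0.85 in the BnST (rho 0.86) and 0.81 in the Tn (rho 0.81), both with a permutation p of 1e-05 (adjusted p = 1.18e-05), and of 0.76 in the hypothalamus (rho 0.69, described only). Removing treatment means left 0.81, 0.80 and 0.66 in that order of regions. Without the 2 birds farthest from the FOSB median the values were 0.83, 0.78 and 0.71. Within birds 1 to 20 they were 0.87, 0.80 and 0.74, and within birds 21 to 50 they were 0.84, 0.75 and 0.76.

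**Figure D4:**
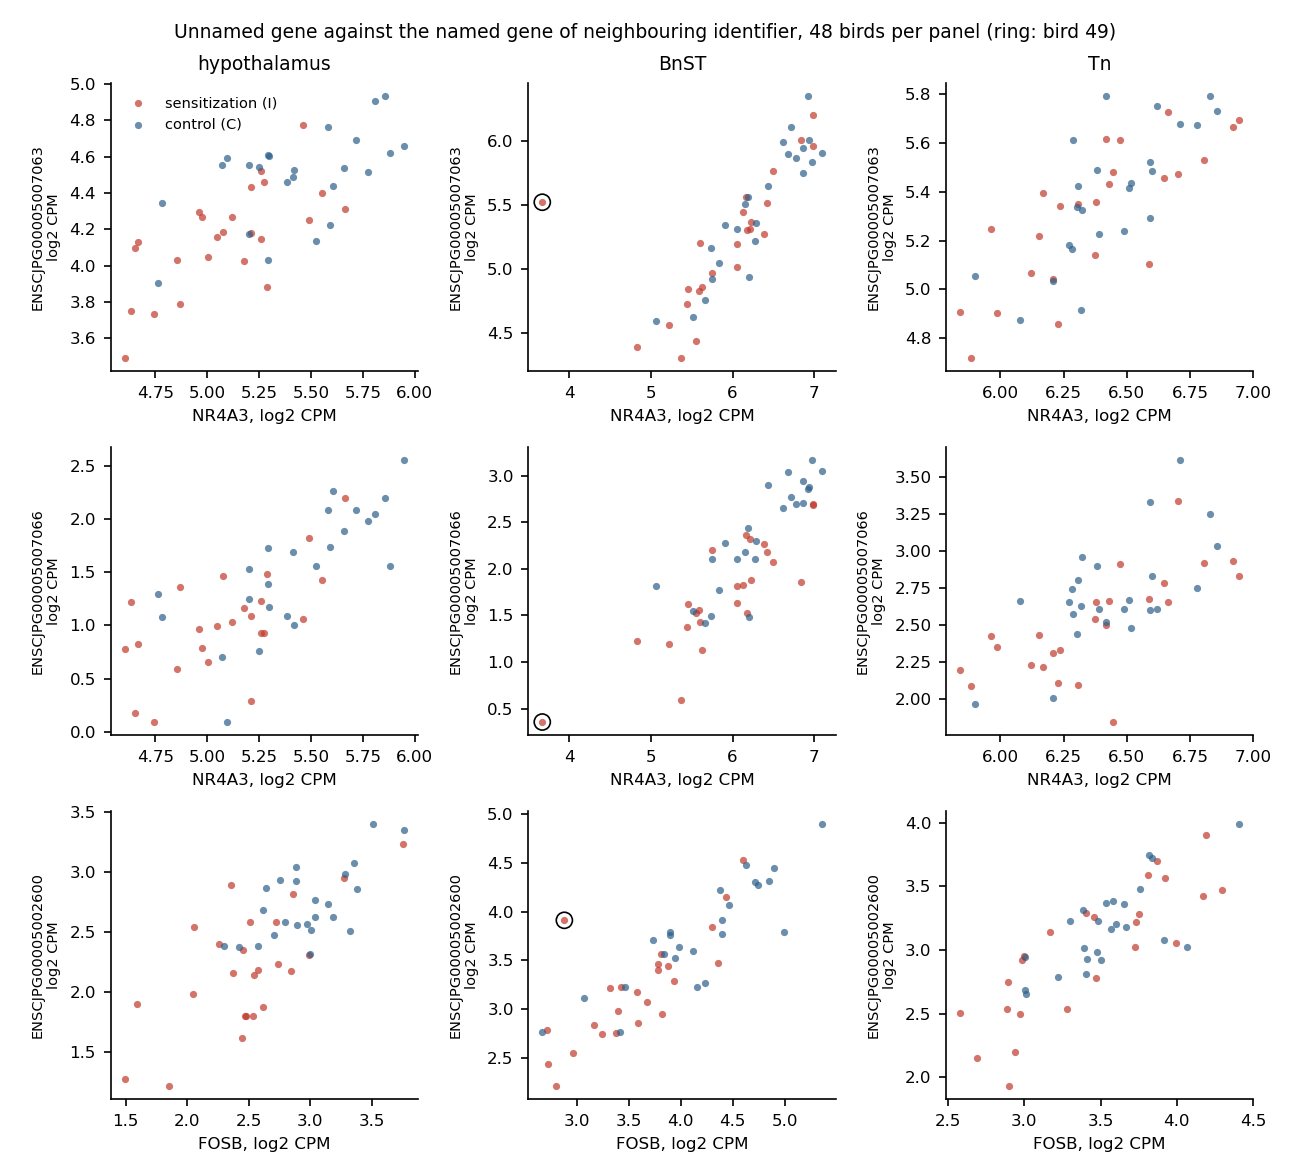
Log2 CPM of each unnamed gene (y axis) against the named gene of neighbouring identifier (x axis), for the 48 birds of each region. Points are birds, red for sensitized and blue for control, and the ring marks bird 49 in the BnST. Pearson's r is 0.72, 0.76 and 0.77 in the top row, 0.75, 0.86 and 0.68 in the middle row and 0.76, 0.85 and 0.81 in the bottom row.

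The crossed pairs were also correlated. ENSCJPG00005007063 had an r with FOSB of 0.85 in the BnST (rho 0.82), 0.61 in the Tn (rho 0.57) and 0.80 in the hypothalamus (rho 0.77, described only). Without bird 49 its BnST value with FOSB was 0.88, below the 0.93 with NR4A3. ENSCJPG00005007066 had 0.53 in the hypothalamus (rho 0.57, permutation p = 5.00e-05, adjusted p = 5.42e-05), 0.59 in the Tn (rho 0.58) and 0.79 in the BnST (rho 0.76, described only). ENSCJPG00005002600 with NR4A3 had 0.64 in the BnST (rho 0.73), 0.52 in the Tn (rho 0.54, permutation p = 2.20e-04, adjusted p = 2.20e-04) and 0.56 in the hypothalamus (rho 0.53, described only). Whether 2 correlations differ was not tested. Without bird 49 the BnST value of ENSCJPG00005002600 with NR4A3 was 0.82, and within birds 21 to 50 its Tn value was 0.30, which did not pass (permutation p adjusted to 0.113).

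The ratio of an unnamed gene to its partner within a library was compared between treatments as well. On the log2 scale the ratio to NR4A3 differed between I and C birds by 0.01 ± 0.0750 for ENSCJPG00005007063 in the hypothalamus, by 0.13 ± 0.126 in the BnST and by −0.02 ± 0.0547 in the Tn (SE, 24 birds a group). Bird 49 decided the BnST value, which was 0.02 ± 0.0602 without it. For ENSCJPG00005007066 the differences were −0.16 ± 0.113, −0.21 ± 0.0988 and −0.15 ± 0.0760 in the same regions, and for the ratio of ENSCJPG00005002600 to FOSB −0.05 ± 0.0995, 0.05 ± 0.101 and −0.07 ± 0.0792, where the BnST value was −0.02 ± 0.0819 without bird 49. Of the 4 ratios free of a listed contrast, 0 passed a permutation test (adjusted p = 0.222 to 0.750, with 0 at an unadjusted p under 0.05). The ratio of ENSCJPG00005007066 to NR4A3 was lower in I birds in all 3 regions, and only its Tn value was tested (permutation p = 0.0556). The spread of these ratios among birds was below that of the gene itself: 0.36 against 0.65 for ENSCJPG00005007066 in the BnST, as SD of log2 values.

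The 3 unnamed genes were correlated with one another too. Between ENSCJPG00005007063 and ENSCJPG00005002600, which have distant identifiers, r was 0.83 in the BnST (rho 0.83), 0.69 in the hypothalamus (rho 0.65, described only) and 0.51 in the Tn (rho 0.51). The 2 genes beside NR4A3 had an r of 0.76 in the BnST (rho 0.80), 0.52 in the Tn (rho 0.52) and 0.40 in the hypothalamus (rho 0.36, permutation p = 0.00437, adjusted p = 0.00583). ENSCJPG00005007066 and ENSCJPG00005002600 were the least alike, with 0.65 in the BnST (rho 0.68), 0.35 in the Tn (rho 0.38) and 0.32 in the hypothalamus (rho 0.33, permutation p = 0.0292, adjusted p = 0.0292). All 8 tested pairs passed, but with treatment means removed the hypothalamus values that involve ENSCJPG00005007066 were 0.22 with ENSCJPG00005007063 and 0.10 with ENSCJPG00005002600, and neither passed. How many other genes would pass against each of the 3 was not counted.

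The same gene was also compared between regions of a bird. Of 9 correlations between regions 4 passed by Pearson's r (permutation, adjusted over the 9): ENSCJPG00005007066 between hypothalamus and BnST (r = 0.45, rho 0.42, p = 0.00137, adjusted p = 0.0123) and between BnST and Tn (0.37, rho 0.31, p = 0.0103, adjusted p = 0.0310), and ENSCJPG00005002600 between hypothalamus and BnST (0.33, rho 0.33, p = 0.0196, adjusted p = 0.0442) and between hypothalamus and Tn (0.42, rho 0.33, p = 0.00304, adjusted p = 0.0137). ENSCJPG00005007063 had 0.19 between hypothalamus and BnST, 0.26 between hypothalamus and Tn and 0.04 between BnST and Tn, none of which passed. With treatment means removed, 0 of 9 passed, and without the 2 birds farthest from the median on the x axis 0 of 9 passed, so none of the 4 holds in either setting. Those 4 then had an r of 0.30, 0.27, 0.11 and 0.37 with treatment means removed, and of 0.38, 0.26, 0.30 and 0.34 without the 2 birds, in the order given above. How many other genes would pass the same comparison between regions was not counted.

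The wider set of activity-regulated genes that could be given an identifier held 12: FOS, FOSB and JUN (AP-1 subunits), EGR1 and EGR4 (zinc-finger factors), NPAS4 (a neuronal activity-dependent factor), NR4A3, BTG2 and TOB1 (antiproliferative regulators), SIK1 (a salt-inducible kinase), KLF2 (a Krüppel-like factor) and RRAD (a Ras-related GTP-binding protein). The study listed them from these samples, so they are no independent group. In I over C birds the list had a median log2 fold change of −0.48 in the BnST (0.00 over all genes tested). There 7 of 12 were lower and passed, where 8 of all 14384 genes (0.0556%) passed. In the hypothalamus the median was −0.36 (0.00 over all genes), and 1 of 12, BTG2, was lower and passed, where 3 of all 14491 genes (0.0207%) did. In the Tn it was −0.16 (0.00 over all genes), with 0 of 12 past the threshold. The unnamed genes lay on both sides of these medians, between −0.33 and −0.57 in the hypothalamus and between −0.28 and −0.65 in the BnST.

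Across birds ENSCJPG00005007063 had the highest median r with this list among the 3 genes in the hypothalamus and BnST, but not in the Tn. Its r with EGR1 was 0.89 in the hypothalamus, 0.91 in BnST and 0.61 in Tn, and in the hypothalamus and BnST no other gene of the region had a higher r with it. Its median r with the 12 genes was 0.79 in the hypothalamus, 0.81 in BnST and 0.43 in Tn. With the means of treatment, sex and the split by bird number removed, it was 0.74, 0.82 and 0.39. For BTG2 the r was 0.85 and 0.82 in hypothalamus and BnST but 0.31 for Tn libraries. KLF2 had the lowest r of the 12 with it in the BnST (0.38) and Tn (−0.06), and SIK1 the lowest in the hypothalamus (0.37).

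ENSCJPG00005002600 had a median r with the list of 0.64 in the hypothalamus, 0.76 in BnST and 0.53 in Tn. With the same means removed the median was 0.48, 0.71 and 0.42. FOSB was the gene with the highest r to it of all genes in each region, and with those means removed FOSB ranked 1, 7 and 1. JUN had 0.36 in the hypothalamus, 0.79 in BnST and 0.69 in Tn, and NPAS4 had 0.72, 0.79 and 0.62. Removing those means left 0.14, 0.76 and 0.61 for JUN and 0.66, 0.72 and 0.65 for NPAS4.

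ENSCJPG00005007066 had a median r with the list of 0.78 in the BnST, against 0.29 in the hypothalamus and 0.41 in the Tn. With the same means removed these were 0.72, 0.17 and 0.32. In the hypothalamus its r was 0.26 with FOS, 0.20 with NPAS4, 0.04 with JUN and −0.23 with KLF2. NR4A3 (0.75) and SIK1 (0.70) had the highest r with it of the 12 there, at ranks 2 and 9 among all genes of the region. With those means removed they had 0.67 and 0.60, at ranks 22 and 89. These are correlations over 48 birds that share libraries, given with no test. The list and the 3 genes were chosen for falling with treatment or brooding, so a shared treatment difference adds to r where no means are removed. Brooding was not among the means removed, so a shared difference with brooding within a treatment stays in every r.

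**Figure D5:**
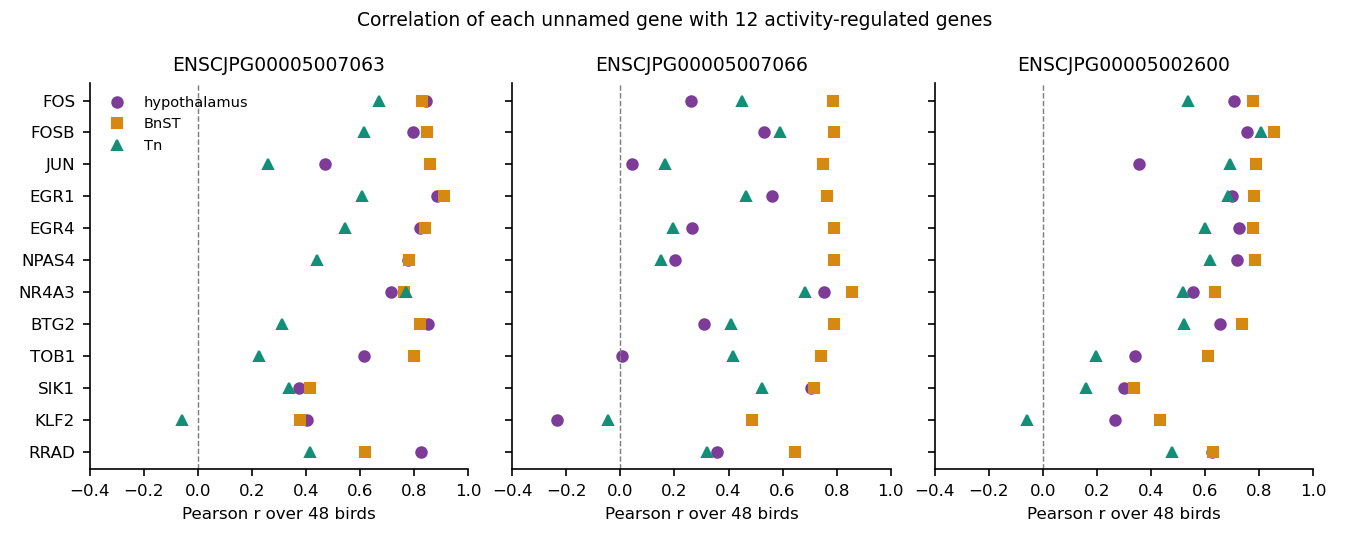
Pearson's r over 48 birds (x axis) of each unnamed gene with 12 activity-regulated genes (y axis), in the hypothalamus (circles), BnST (squares) and Tn (triangles), on log2 CPM. The middle panel shows ENSCJPG00005007066 at 0.49 to 0.86 in the BnST and at −0.23 to 0.75 in the hypothalamus.

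Likeness was also ranked over all genes, by the mean over the 3 regions of r after treatment, sex and number-series means were removed, among 14020 other genes measurable in all regions. The genes most like ENSCJPG00005007063 were EGR1 (mean r 0.78), FOS (0.78), EGR4 (0.73) and NR4A3 (0.72), followed by a gene given no symbol here. The list makes up 12 of the 14020 genes ranked, and on it were 7 of the 20 genes nearest to ENSCJPG00005007063. For ENSCJPG00005002600 they were FOSB (0.74), EGR1 (0.68), a gene given no symbol here, NPAS4 (0.67) and EGR4 (0.66), with 5 list genes among the nearest 20. ENSCJPG00005007066 had NR4A3 first (0.73) and 4 genes given no symbol here after it, and 3 list genes among its nearest 20. Only 18 of 21561 identifiers, those the study named, carried a symbol here. Lacking one therefore says nothing of how well a gene is known. The median gene had a mean r between −0.02 and 0.00 with each of the 3. The study listed the 12 genes from these same birds for differences with treatment or brooding. Brooding was not among the means removed, so a shared difference with brooding adds to these ranks.

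Identifiers close in number served as a last comparison, since many are given in order along a chromosome, although the positions were not checked here. Among the genes within 5 numbers of ENSCJPG00005007063, apart from NR4A3 and ENSCJPG00005007066, 6 of 8 were measurable. Their r with it was −0.14 to 0.09 in the hypothalamus, −0.17 to 0.31 in the BnST and −0.15 to 0.24 in the Tn, and their I minus C differences were within −0.12 and 0.07 on the log2 scale. For ENSCJPG00005007066 the 6 measurable neighbours had an r of −0.39 to 0.48 over the 3 regions.

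Beside ENSCJPG00005002600 and FOSB, 4 of 9 other genes were measurable. ENSCJPG00005002597, the number just below FOSB and given no symbol here, was singled out after its values were seen. Its r with ENSCJPG00005002600 was 0.62 in the hypothalamus, 0.81 in BnST and 0.68 in Tn, and I minus C was −0.64, −0.70 and −0.25 on the log2 scale. The other 3 had an r of −0.17 to 0.32.

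Spread among birds of a group was above that of most genes. The biological coefficient of variation, the relative spread beyond counting noise, was 0.37 for ENSCJPG00005007066, 0.37 for ENSCJPG00005002600 and 0.34 for ENSCJPG00005007063 in the BnST, against a median of 0.18 over 14384 genes. In the hypothalamus it was 0.33, 0.27 and 0.17, against a median of 0.15, and in the Tn 0.24, 0.29 and 0.19, against 0.16. Among the 5 genes NR4A3 (0.40) and FOSB (0.39) in the BnST had the largest values.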

How the data were processed

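Brain punches from 48 birds gave 144 libraries (NEBNext Ultra kit). The authors filtered reads, aligned them with HISAT2 to Coturnix_japonica_2.0 and counted reads per Ensembl gene with HTSeq. The deposited values are raw counts, and CASAVA 1.8.2 is named in the processing notes. Versions of HISAT2 and HTSeq and the strand setting are not given in the sources used here. Reads shared by overlapping genes depend on that setting.

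Genes were kept with filterByExpr (minimum count 10, total 15), scaled by TMM and tested with edgeR 4.0.16 (R 4.3.3, quasi-likelihood, robust) with Benjamini-Hochberg adjustment over all genes tested, at a threshold of 0.05. Treatment was fitted per region without covariates, response and sex with treatment, and region with the bird as a block. The numbers in the titles pair the regions: sex, treatment and response were the same for every number. Correlations used log2 CPM (prior count 2) and 100000 permutations, two-sided. Alternatives were DESeq2 1.42.0, limma-voom (limma 3.58.1), other size factors, no filter, covariates and left-out birds, and scripts were tested on simulated data. P-values treat the birds as independent.

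The members and gene lists were chosen with earlier results of these data known, and so were the split by bird number and birds 17 and 49. Named were the 3 genes, their 2 partners, the 12 list genes, and per gene the 5 most alike. The study's supplementary tables name 18 identifiers, all found in RefSeq by gene number. Other genes of the activity list and the cell type markers could not be matched to identifiers.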

Additional observations from a re-analysis of the deposited data

Results flagged for a closer look

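One value stood apart within its class. In the BnST of the 6 NR birds, ENSCJPG00005002600 was at 17.6 CPM in bird 28, a female, against 9.60 CPM in the next bird, a gap of 0.72 of the whole range (Dixon's critical value for 6 samples is 0.625). The same bird had 6.88 CPM in the hypothalamus and 11.7 CPM in the Tn. In all, 18 classes of 5 or 6 birds were checked and 1 was past the limit, where chance gives about 1 in 20.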

How the results depend on the processing

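The treatment, sex and region differences of the 3 genes kept their direction under the other tools, size factors, filter, covariates and left-out birds, with 1 exception (sex differences within the number series, which turned in 4 cases, are given with the sex comparison): ENSCJPG00005007063 between BnST and Tn was 0.00 with other size factors (0.0046), 0.01 with no filter (0.0056) and 0.056 with no replicate block. Without the block on the bird, the region comparisons called 8770, 10079 and 9105 genes (hypothalamus over BnST, hypothalamus over Tn, BnST over Tn), against 10483, 11650 and 10780 with it, and no call on the 3 genes changed with the pairing. The count of genes past the threshold for treatment in the hypothalamus was 3, against 8 with DESeq2 and 5 with limma-voom. For response in the hypothalamus it was 2, against 10 with DESeq2, 9 without treatment as a covariate and 0 with the number series as a covariate. It was 6 for response in the BnST with no filter, and 1 for the sex by treatment interaction in the Tn with DESeq2, against 0 in each. The direction of response differences in the BnST turned for ENSCJPG00005007063 with limma-voom (−0.01, or −0.0060 unrounded), without treatment as a covariate (−0.10) and with the number series (−0.054), for ENSCJPG00005007066 in the last 2 of these (−0.26 and −0.11), and for ENSCJPG00005002600 without treatment as a covariate (−0.18). In the Tn that of ENSCJPG00005002600 was 3.16e-05 without bird 49 and 0.0011 without bird 17. None of these passed the threshold in any fit. Of the correlations between regions 4 of 9 passed, against 0 with treatment means removed, 1 with treatment, sex and number-series means removed, 0 without the 2 birds farthest out, 0 within birds 1 to 20 and 1 within birds 21 to 50. ENSCJPG00005007063 between BnST and Tn turned negative with treatment means removed (−0.01, or −0.0071), with all 3 removed (−0.069) and within birds 21 to 50 (−0.033). Between the 3 genes 8 of 8 pairs passed, against 5 with treatment, sex and number-series means removed and 4 within birds 21 to 50, alternatives chosen after seeing the data. The log2 ratio to the partner in the Tn, I minus C, was 0.062 for ENSCJPG00005007063 and 0.019 for ENSCJPG00005002600 within birds 21 to 50, opposite to the values over all birds. The causes of these changes were not tested.

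Counts limit ENSCJPG00005007066 most, with 9 to 87 counts per library in the hypothalamus. With 24 birds a group and the spread given, its treatment difference there carries an SE of 0.156 on the log2 scale. Response classes of 5 and 6 birds give no narrow interval. The labels give no key to the response classes and no batch, and the calls rest on 1 set of birds.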
